A study of Mus musculus with 6 samples.

Results

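The genes of the smooth muscle contractile apparatus were followed across 6 colon arrays, 1 per mouse. They were 31 genes chosen by name for their roles as actins, myosin, thin filament proteins, anchors of the filaments, channels, small heat shock proteins and their transcriptional coactivator, out of 18194 genes with a probe set of their own. Where a gene had several probe sets, the one with the highest mean over the 6 arrays stood for it. Deficient mice were 3 C57BL/6 animals with floxed Pparg (PPAR gamma flfl) and Lysozyme M Cre+, and control mice were 3 littermates with the same floxed alleles and Lysozyme M Cre-. Mice of 6 to 8 weeks were used, and all 6 drank water with 2.5% DSS (dextran sodium sulfate, a polymer that damages the colonic epithelium and causes colitis) until tissue was taken on day 7. No untreated colon was compared. Cre under the lysozyme M promoter acts mainly in macrophages and neutrophils and is inserted at Lyz2, so effects of Cre or of altered Lyz2 cannot be told apart from loss of the receptor, and the Pparg alleles of muscle cells are not its target. RNA came from whole colon, so mucosa and muscle wall were measured together, and fewer muscle cells cannot be told apart from less RNA per muscle cell. All values are GCRMA log2 expression summaries as deposited, on which a difference of 1 is a doubling. Numbers 1 to 3 after a group name are the replicate numbers of the labels and carry no order.

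Smooth muscle shortens when calcium entering through voltage-gated channels binds calmodulin and activates myosin light chain kinase, which phosphorylates the light chain of smooth muscle myosin and lets it pull on actin. Myosin phosphatase reverses the step, and large-conductance potassium channels limit calcium entry by repolarising the membrane. Most of the genes are switched on by serum response factor and its coactivator myocardin, through the CArG box, a short element of CC, a core of 6 bases each A or T, and GG. In the colon the proteins fill the circular and longitudinal layers that move the content, the muscularis mucosae, and the walls of vessels.

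The promoter windows of 4 members are shown because these genes carry the patterns described next: Acta2 and Myl9 of the motor, Vcl of the anchorage group, and Pln, the member with the lowest genotype difference. Each window runs from 250 bases before to 50 bases after the annotated start in RefSeq (GRCm38.p6), read 5′ to 3′ on the gene's strand. Capitals mark a CArG box, or a CArG-like element that has 1 G or C in its core. The windows are chr19:34255324-34255623 on the minus strand for Acta2, chr2:156775214-156775513 on the plus strand for Myl9, chr14:20929148-20929447 on the plus strand for Vcl and chr10:53337436-53337735 on the plus strand for Pln.
Acta2: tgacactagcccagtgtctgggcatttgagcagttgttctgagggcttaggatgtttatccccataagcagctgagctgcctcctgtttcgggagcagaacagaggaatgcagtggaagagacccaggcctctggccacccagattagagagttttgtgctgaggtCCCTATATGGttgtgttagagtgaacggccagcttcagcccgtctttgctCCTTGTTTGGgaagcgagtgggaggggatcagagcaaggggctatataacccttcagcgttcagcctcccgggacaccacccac
Myl9: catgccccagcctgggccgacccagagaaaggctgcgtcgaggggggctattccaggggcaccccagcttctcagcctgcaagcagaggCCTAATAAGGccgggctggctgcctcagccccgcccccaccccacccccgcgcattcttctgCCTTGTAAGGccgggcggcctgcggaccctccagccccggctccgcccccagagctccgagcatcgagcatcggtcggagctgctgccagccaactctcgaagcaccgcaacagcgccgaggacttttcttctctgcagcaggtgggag
Vcl: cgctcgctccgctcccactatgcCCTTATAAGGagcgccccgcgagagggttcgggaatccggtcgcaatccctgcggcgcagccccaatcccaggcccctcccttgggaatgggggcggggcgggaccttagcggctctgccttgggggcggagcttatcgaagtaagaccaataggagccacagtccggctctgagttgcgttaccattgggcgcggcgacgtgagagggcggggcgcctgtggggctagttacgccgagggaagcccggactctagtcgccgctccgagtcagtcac
Pln: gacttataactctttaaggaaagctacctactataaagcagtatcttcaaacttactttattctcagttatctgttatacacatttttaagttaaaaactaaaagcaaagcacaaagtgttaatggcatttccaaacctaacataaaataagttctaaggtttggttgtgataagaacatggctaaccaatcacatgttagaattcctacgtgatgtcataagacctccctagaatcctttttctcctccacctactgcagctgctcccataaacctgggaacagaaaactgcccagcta
Acta2 held CArG-like elements beginning 84 and 34 bases before the annotated start. Myl9 held a CArG box 161 bases and a CArG-like element 99 bases before it, and Vcl a CArG box 227 bases before it. The Pln window held neither and had a GC content of 36.0%, against 54.7% for Acta2, 68.3% for Myl9 and 66.7% for Vcl. Entries were found for 27 of the 31 members, not for Actg2, Myh11, Tagln and Myocd. A CArG box was in 2 of the 27 (Myl9 and Vcl, 7.41%), against 1.81% of all 27025 genes with a window, where a gene counts if any of its windows holds the element. The CArG-like element was in 6 of 27 members (22.2%; Acta2, Myl9, Synm, Cacna1c, Jph2 and Hspb6), against 9.69% of genes. Because both elements read the same way on either strand, 1 search covered both. The motif CATTCC, bound by TEAD factors and searched on both strands, was in 9 of 27 members (33.3%) against 16.6% of genes, and TATAA on the sense strand in 6 of 27 (22.2%) against 20.0%; in Vcl a TATAA lies inside the CArG box. These are matches of letters and show no binding.

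The arrays differed in tissue profile. Deficient 3 and control 1 carried genes of the small intestine: Fabp6, which carries bile acids in the ileum, read 14.49 and 15.32 on them, and from 5.72 to 7.81 on the other 4. Car1, of colonocytes, was at 7.02 and 2.83 on the pair, and from 13.60 to 15.32 on the others. The targeted gene Pparg read 8.77, 8.23 and 4.15 in deficient 1 to 3, against 5.28, 9.91 and 9.54 in control 1 to 3. Its log2 difference of -1.19 did not pass (limma adjusted p = 0.881), and whole colon holds many Pparg-expressing epithelial cells without Cre, so it does not check the deletion. Lyz2, at the Cre insertion, read 6.80, 6.24 and 10.39 in deficient samples, against 12.32, 11.79 and 12.19 in control samples. Control 2 was the 1 array with Xist, at 12.11 against 2.25 on each other array, as in a female. Per array, the share of probe sets above log2 4 ran from 41.4% to 42.7%.

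All 31 members were above log2 4 on all 6 arrays, so none entered through 1 group alone. Smooth muscle lines colon and small intestine alike, so these genes do not check the colon label. Acta2, smooth muscle actin, stood between 13.15 and 14.36, and Des, the muscle intermediate filament desmin, between 8.66 and 10.44. Of 14 skeletal muscle markers 12 were below log2 4 on all arrays, among them the myosins Myh1, Myh2 and Myh4 and the fast troponin Tnnt3. Of the remaining 2, skeletal actin Acta1 read 7.01, 7.47 and 7.37 in deficient samples and 7.44, 8.05 and 6.84 in control samples, and the creatine kinase Ckm 6.34, 4.96 and 6.38 against 5.52, 7.37 and 7.22. Of 8 cardiac markers, the heart myosin Myh6, the troponin Tnni3 and the natriuretic peptides Nppa and Nppb were below 4 on all arrays. Another was not below 4 on all arrays but did not pass the filter, and the remaining 3 passed. Myl7, the atrial myosin light chain, read 7.50, 6.31 and 7.20 in deficient samples, against 5.19, 5.70 and 5.47 in control samples, a difference of 1.55 without overlap (limma adjusted p = 0.658). The troponin Tnnt2 read 4.63, 4.48 and 7.42 against 7.94, 4.63 and 4.83, high on the arrays with small intestine genes, and the cardiac actin Actc1 4.90, 3.76 and 6.32 against 5.06, 5.15 and 5.06.

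**Figure D1:**
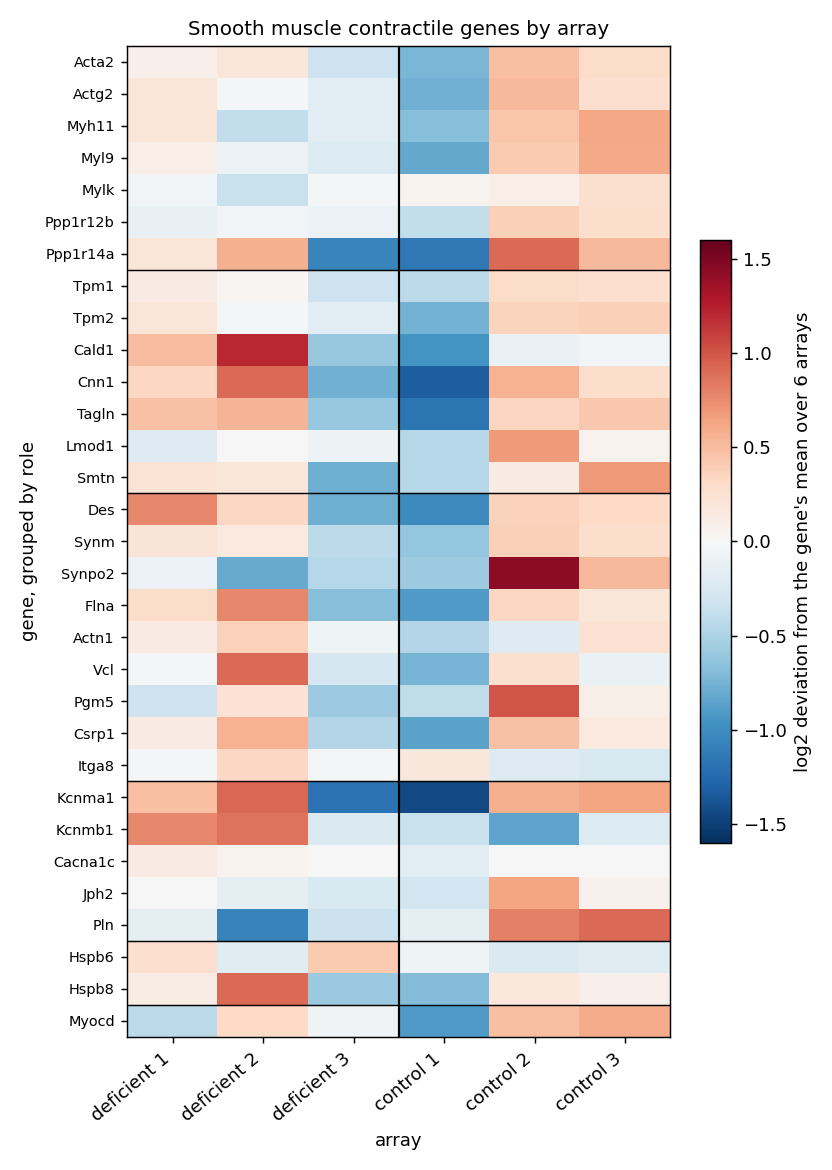
Each cell is the log2 deviation of 1 gene (rows, grouped by role from the motor at the top to Myocd at the bottom) from its mean over 6 arrays (columns, deficient left of control), with red above and blue below the mean. Control 1 and deficient 3 are mostly blue, 11 genes are highest on deficient 2, and the motor genes at the top are highest on control 2 or 3.

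The arrays with small intestine genes were the low ones for most muscle genes. Their median deviation from each gene's own mean was 0.13, 0.20 and -0.33 in deficient 1 to 3, against -0.68, 0.38 and 0.27 in control 1 to 3. Control 1 was the lowest array for 23 of 31 members (74.2%), against 20.8% of the 10488 genes that passed the filter on low values. Both arrays with small intestine genes read below all other 4 for 19 members (61.3%), where 21% of genes did so. For 28 of 31 members (90.3%) the mean of the pair was below the mean of the other 4, against 55.3% of genes. The median difference, pair minus the other 4, was -0.74 for the members and -0.05 for all genes. The pair was set apart by its intestinal genes, and these counts are a description with no test.

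The lower level on the pair was uneven along the list. Kcnma1, the pore of the large-conductance potassium channel, stood at 5.71 and 5.45 on deficient 3 and control 1, against 7.37 to 7.82 on the other arrays, a mean difference of -1.97. Ppp1r14a, the phosphatase inhibitor CPI-17, differed by -1.64, the thin filament protein calponin (Cnn1) by -1.56, desmin (Des) by -1.34 and the actin-binding protein transgelin (Tagln) by -1.34. Acta2, Actg2 and Myh11 differed by less, at -0.79, -0.71 and -0.64. Mylk, the myosin light chain kinase, read 12.73 on deficient 3 and 12.81 on control 1, inside the range of 12.39 to 13.01 on the other 4, and differed by 0.03. A second Mylk probe set, nearly as bright, read 12.51 and 12.41 on the pair, below its 12.54 to 12.98 on the other 4. So for Mylk the comparison depends on the probe set. The integrin Itga8 at 0.12 and the heat shock protein Hspb6 at 0.26 were also not lower on the pair. Markers of several other wall cells were lower there too, but not of all. The medians were -1.05 for 11 fibroblast markers and -1.73 for 4 markers of interstitial cells of Cajal (the pacemakers of the gut). They were -1.41 for 9 neuronal, -0.81 for 10 endothelial and -0.77 for 6 pericyte markers. For enteric glia (2 markers) the median was -0.09, for mesothelium (6 markers) 0.20 and for epithelium (12 markers) 0.11. The part of these cell types in the muscle values was not tested.

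**Figure D2:**
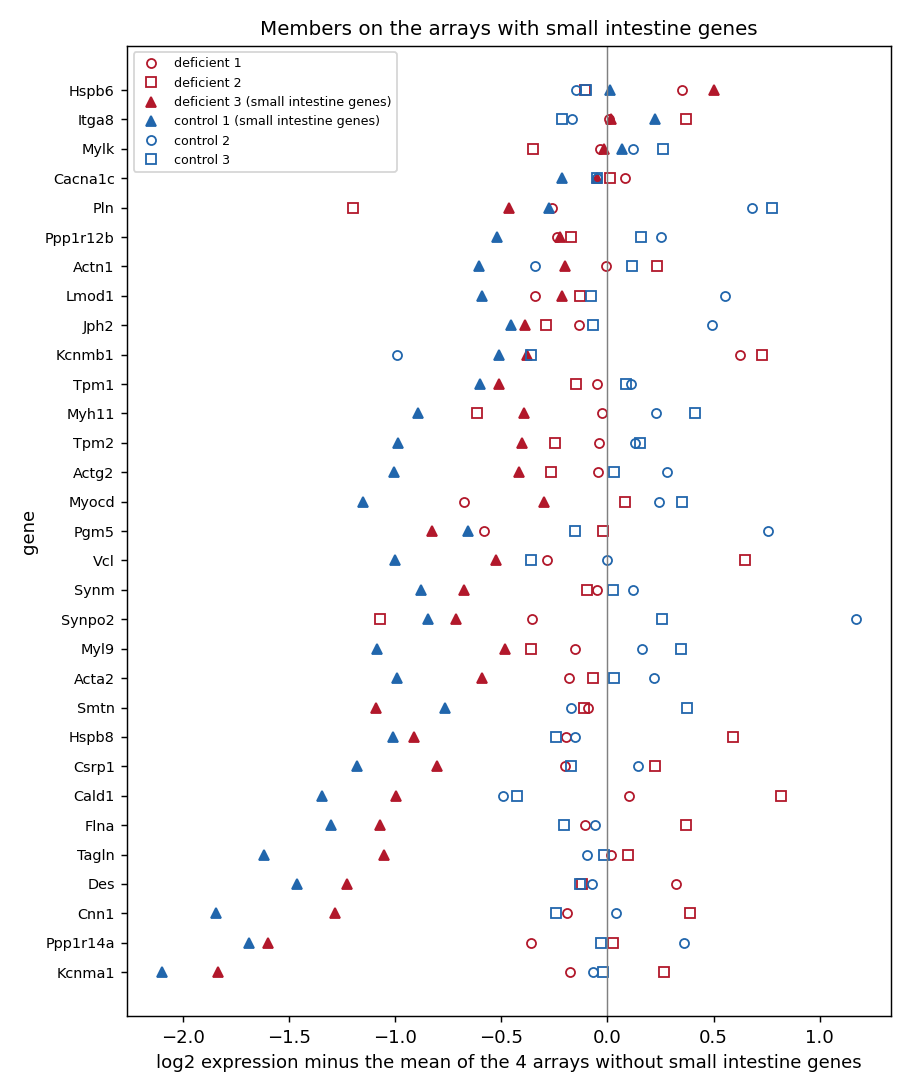
Each row is a member and each point its log2 expression on 1 array minus the mean of the 4 arrays without small intestine genes; filled triangles are deficient 3 and control 1, open symbols the other 4. The triangles lie left of the open symbols for 19 members, furthest for Kcnma1; those of Mylk and Itga8 lie among the open symbols, and for Hspb6 deficient 3 lies right of them all.

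Between genotypes no member passed. With limma and Benjamini-Hochberg adjustment over 10488 genes, 0 of 31 members had an adjusted p under 0.05, as did 0% of all genes, and 0.666 was the smallest adjusted p of a member. Without adjustment, 2 of 31 members (6.45%; Pln and Kcnmb1) had a p under 0.05, against 7.47% of all genes. In deficient samples 15 members were higher and 16 lower, with a median difference of -0.01, while 57.1% of all genes were higher, 42.9% were lower and their median difference was 0.06. Groups did not overlap for 1 member, Mylk, which was lower, as were 4.15% of all genes; 0 members and 9.35% of all genes were higher without overlap. Standard errors ran from 0.15 to 0.79, with a median of 0.39, and in simulated data of this size no change of log2 1 was recovered (0%), against 66.5% of changes of log2 2. Changes of log2 1 were thus not detectable at 3 arrays a group.

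The median of the list had opposite signs in the sets of arrays split by tissue profile. Among the 4 arrays without small intestine genes, both deficient arrays were below both control arrays for 14 members (45.2%, all genes 18.4%) and above both for 5 (16.1%, all genes 30.5%), while groups did not overlap for 48.9% of all genes. There 14 members were higher (58.3% of all genes) and 17 lower (41.6% of all genes), with a median difference of -0.20 against 0.08 for all genes. Between the other arrays, deficient 3 minus control 1, 26 of 31 members were higher (50.4% of all genes), with a median of 0.26 against 0.00 for all genes. The sign differed between the sets of arrays for 14 of 31 members. The share over all genes was not counted, and deficient 3 minus control 1 rests on 1 array a group. Leaving out control 1 gave a median of -0.35 with 8 of 31 members higher, leaving out control 2 gave 0.19 with 23 higher and leaving out control 3 gave 0.13 with 23 higher, so single arrays decide the direction of the list.

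**Figure D3:**
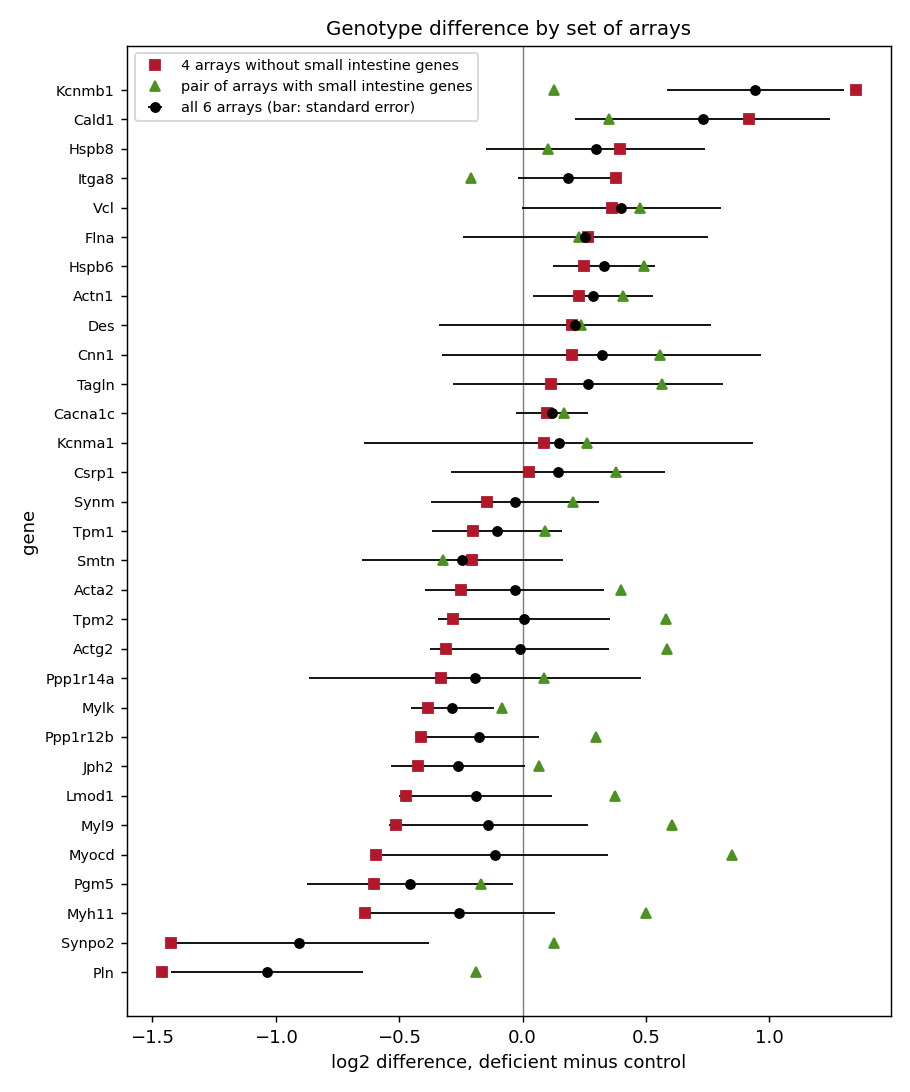
Each row is a member and the horizontal axis is the log2 difference, deficient minus control; black points with standard errors use all 6 arrays, red squares the 4 arrays without small intestine genes and green triangles the pair with them. Pln and Synpo2 lie furthest left and Kcnmb1 and Cald1 furthest right in the 4 arrays, and for 14 members the triangle and the square lie on opposite sides of 0.

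All 7 genes of the motor and its switch were lower in deficient samples, by 0.01 to 0.28 on the log2 scale, and none passed (adjusted p from 0.729 to 0.998). Acta2 read 13.96, 14.08 and 13.55 in deficient samples, against 13.15, 14.36 and 14.17 in control samples, a difference of -0.03 ± 0.36 (SE). Actg2, the enteric smooth muscle actin, read 13.05, 12.83 and 12.68 against 12.09, 13.38 and 13.13. For both actins the deficient values lay inside the control range, which control 1 stretched downward. Myh11, the smooth muscle myosin heavy chain, read 12.00, 11.41 and 11.63 against 11.13, 12.25 and 12.44, a difference of -0.26 ± 0.39 (SE). Myl9, the regulatory light chain, read 12.73, 12.53 and 12.41 against 11.80, 13.05 and 13.24. Without the arrays with small intestine genes Myh11 differed by -0.64 and Myl9 by -0.51, and between those arrays by 0.50 and 0.60, with opposite sign. A second Myh11 probe set, at 4.29 to 5.06, gave 0.12 over all arrays.

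Mylk was the steadiest of the motor genes across tissue on its brightest probe set, while its second read lower on both arrays with small intestine genes. The brightest read 12.71, 12.39 and 12.73 in deficient samples and 12.81, 12.86 and 13.01 in control samples, or 12.61 ± 0.19 against 12.89 ± 0.10 (SD, n = 3 each). Every deficient value was below every control value, and the difference was -0.28 ± 0.17 (SE; limma adjusted p = 0.729). The second Mylk probe set gave -0.25 with overlapping groups, and the dimmest gave -0.69, at 6.57, 5.88 and 6.21 against 6.78, 6.96 and 6.98, without overlap. On deficient 3 against control 1 the probe sets disagreed: the first was lower, at 12.73 against 12.81, and the second higher, at 12.51 against 12.41. Ppp1r12b, a targeting subunit of myosin phosphatase, read 7.52, 7.58 and 7.53 against 7.23, 8.01 and 7.91, and differed by -0.18 ± 0.24 (SE, adjusted p = 0.878). Ppp1r14a was low on both arrays with small intestine genes, at 8.20, 8.59 and 6.96 against 6.87, 8.92 and 8.53, and differed by -0.19. In the 4 arrays without small intestine genes 6 of the 7 motor genes were lower in both deficient arrays than in both control arrays, with Ppp1r14a overlapping; 18.4% of all genes were lower in this way.

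**Figure D4:**
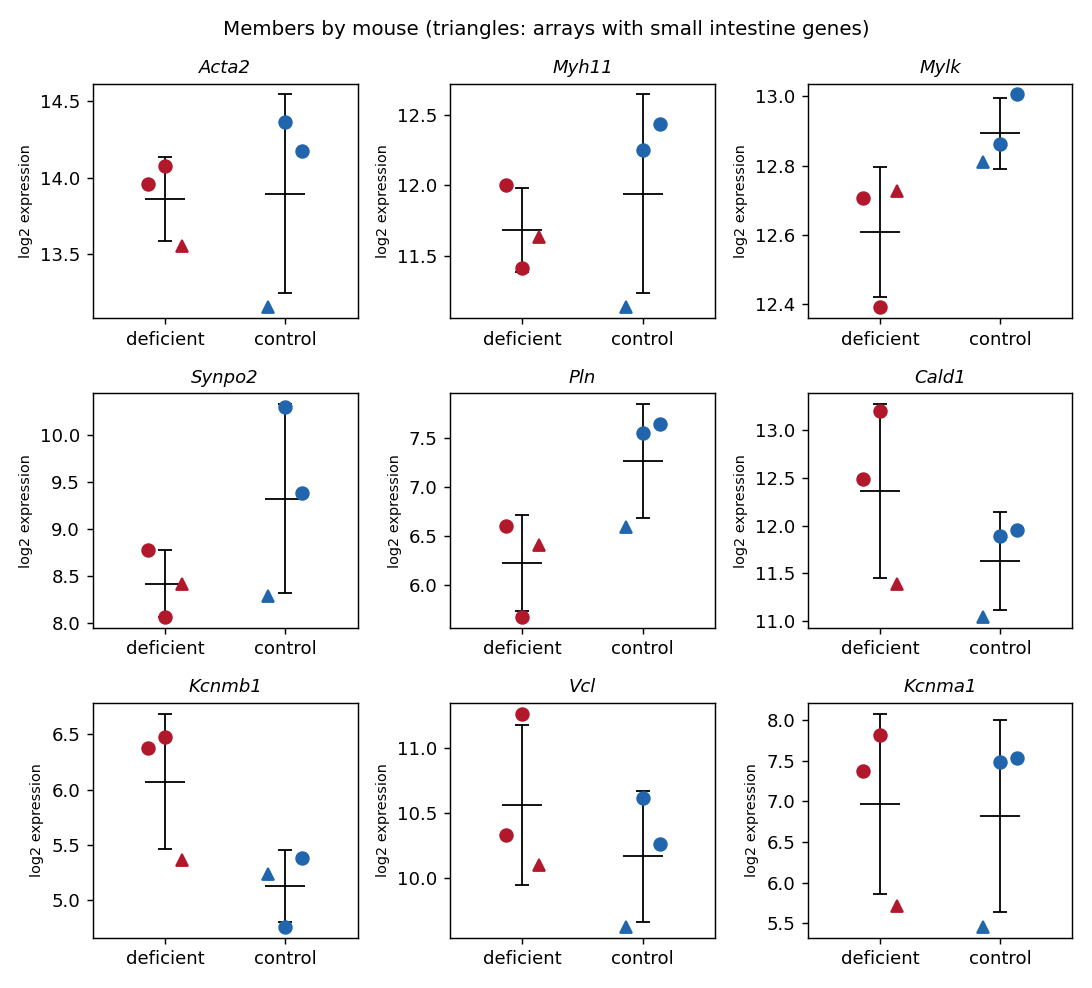
Each panel shows log2 expression of 1 member by mouse, deficient (red) left of control (blue), with the mean and SD over 3 arrays as bars; triangles are the arrays with small intestine genes. Mylk does not overlap between groups, Pln and Synpo2 are high on control 2 and 3, Cald1 and Kcnmb1 on deficient 1 and 2, and Kcnma1 is low on both triangles.

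Thin filament genes were split, with 4 of 7 higher and 3 lower and no adjusted p under 0.763. Tropomyosins, which lie along actin, differed little: Tpm1 by -0.10 and Tpm2 by 0.01. Cald1, caldesmon, which restrains the myosin motor and has a shorter form in non-muscle cells, read 12.49, 13.20 and 11.39 in deficient samples, against 11.04, 11.89 and 11.96 in control samples. It was highest on deficient 2 and next on deficient 1, and the difference was 0.73 ± 0.52 (SE, adjusted p = 0.763). The other 3 Cald1 probe sets past the filter gave 0.76, 0.80 and 1.07. Without deficient 2 the difference was 0.31, without deficient 3 it was 1.21, and it was 0.92 on the 4 arrays that lack small intestine genes. Cnn1 read 12.33, 12.91 and 11.24 against 10.68, 12.56 and 12.28, and Tagln 13.58, 13.65 and 12.50 against 11.94, 13.46 and 13.54. For both genes the groups overlapped, with deficient 3 and control 1 the lowest, and the differences were 0.32 ± 0.65 and 0.27 ± 0.55 (SE). Lmod1, leiomodin, which starts actin filaments, was near the low end of the arrays at 4.62 to 5.77 and differed by -0.19, and Smtn, smoothelin, a protein of contractile muscle, by -0.24.

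Genes that anchor the filaments were split, 6 of 9 higher, with a median of 0.18 and no adjusted p under 0.724. Vcl, vinculin, which ties actin to integrin plaques, read 10.33, 11.27 and 10.10 in deficient samples, against 9.62, 10.62 and 10.26 in control samples, a difference of 0.40 ± 0.40 (SE). The high value was that of deficient 2, and the groups overlapped. Actn1, alpha-actinin, differed by 0.29, Flna, filamin A, by 0.25, Des by 0.21, Itga8 by 0.18 and Csrp1, a LIM protein of the dense bodies, by 0.14. Synm, synemin, a partner of desmin, differed by -0.03, and Pgm5, aciculin, a vinculin partner without enzyme activity, by -0.46. A second Synm probe set, at 7.76 to 8.57, gave 0.27, so the sign for Synm depends on the probe set. Synpo2, myopodin, an actin-bundling protein, read 8.78, 8.06 and 8.42 against 8.29, 10.30 and 9.39. Its difference of -0.91 ± 0.53 (SE, adjusted p = 0.724) came from control 2 and 3, and was -0.42 without control 2 and -1.43 without the arrays with small intestine genes. Dimmer Synpo2 probe sets ran the other way, at 1.06 and 0.91 with values from 3.49 to 6.54, so the direction for Synpo2 depends on the probe set.

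Calcium and channel genes held both members with an unadjusted p under 0.05, and these had opposite signs. Pln, phospholamban, the brake on the calcium pump of the sarcoplasmic reticulum, read 6.61, 5.67 and 6.41 in deficient samples, against 6.60, 7.55 and 7.65 in control samples. Control 2 and 3 lay above all deficient arrays, while control 1 lay just under deficient 1. Its difference was -1.04 ± 0.39 (SE; limma adjusted p = 0.666), with -1.46 in the 4 arrays without small intestine genes and -0.19 between the pair. Its 2 other probe sets gave -0.83 and -0.30. Kcnmb1, the beta subunit that tunes the large-conductance potassium channel of smooth muscle to calcium, read 6.37, 6.48 and 5.37 against 5.24, 4.76 and 5.39. Deficient 1 and 2 were above all control arrays, deficient 3 was level with control 3, and the difference was 0.94 ± 0.36 (SE; limma adjusted p = 0.666). It was 1.35 in the 4 arrays and 0.13 between the pair. The second Kcnmb1 probe set was below 3 on all arrays.

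The pore subunit of the same channel did not share the values of Kcnmb1. Kcnma1 read 7.37, 7.82 and 5.71 in deficient samples and 5.45, 7.48 and 7.53 in control samples, a difference of 0.15 ± 0.79 (SE), and its low values were those of the arrays with small intestine genes. Cacna1c, the pore of the L-type calcium channel, differed by 0.12 at levels of 4.29 to 4.59, close to the filter limit. Jph2, junctophilin, which holds the reticulum to the cell membrane, differed by -0.26. Of the small heat shock proteins, Hspb6, a relaxation-associated partner of actin, read 8.23, 7.77 and 8.38 against 7.89, 7.73 and 7.77, a difference of 0.33 ± 0.21 (SE, adjusted p = 0.737). Hspb8, a chaperone partner in muscle, differed by 0.30. Myocd, the coactivator named above, read 5.75, 6.51 and 6.13 against 5.28, 6.67 and 6.78, and differed by -0.11 ± 0.46 (SE), by -0.59 in the 4 arrays and by 0.85 between the pair.

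Across roles the members differed in which array was highest. Deficient 2 was the highest array for 11 of 31 members (Cald1, Cnn1, Tagln, Flna, Actn1, Vcl, Csrp1, Itga8, Kcnma1, Kcnmb1 and Hspb8), against 28.9% of all genes. That count is not far from the share over all genes. Control 2 or 3 was the highest for 17 of 31, all 7 motor genes among them, against 29.6% of all genes. Several of the first set (Cald1, Flna, Actn1 and Vcl) are also made by fibroblasts and other non-muscle cells. Whether this sets them apart from the second set was not tested. The fibroblast markers, summed over 12 genes, stood at a log2 of 15.25, 16.12 and 14.87 in deficient samples, against 14.19, 15.42 and 15.42 in control samples, and none of the 12 was below log2 4 on all arrays. That sum was highest on deficient 2 and lowest on control 1. The 11 members were grouped by being highest on deficient 2, so sharing that array with the sum is no separate result. Of them 9 were lowest on control 1 (Itga8 was lowest on control 3 and Kcnmb1 on control 2), as were 12 of the 17 highest on control 2 or 3. The part of fibroblasts in these values was not tested. Col3a1, a fibrillar collagen, read 14.02, 14.94 and 13.80 against 12.96, 14.07 and 14.15. Myeloid markers were also highest on deficient 2, with 12 of 13 higher in deficient samples and a median of 1.40, and their part was likewise not tested.

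**Figure D5:**
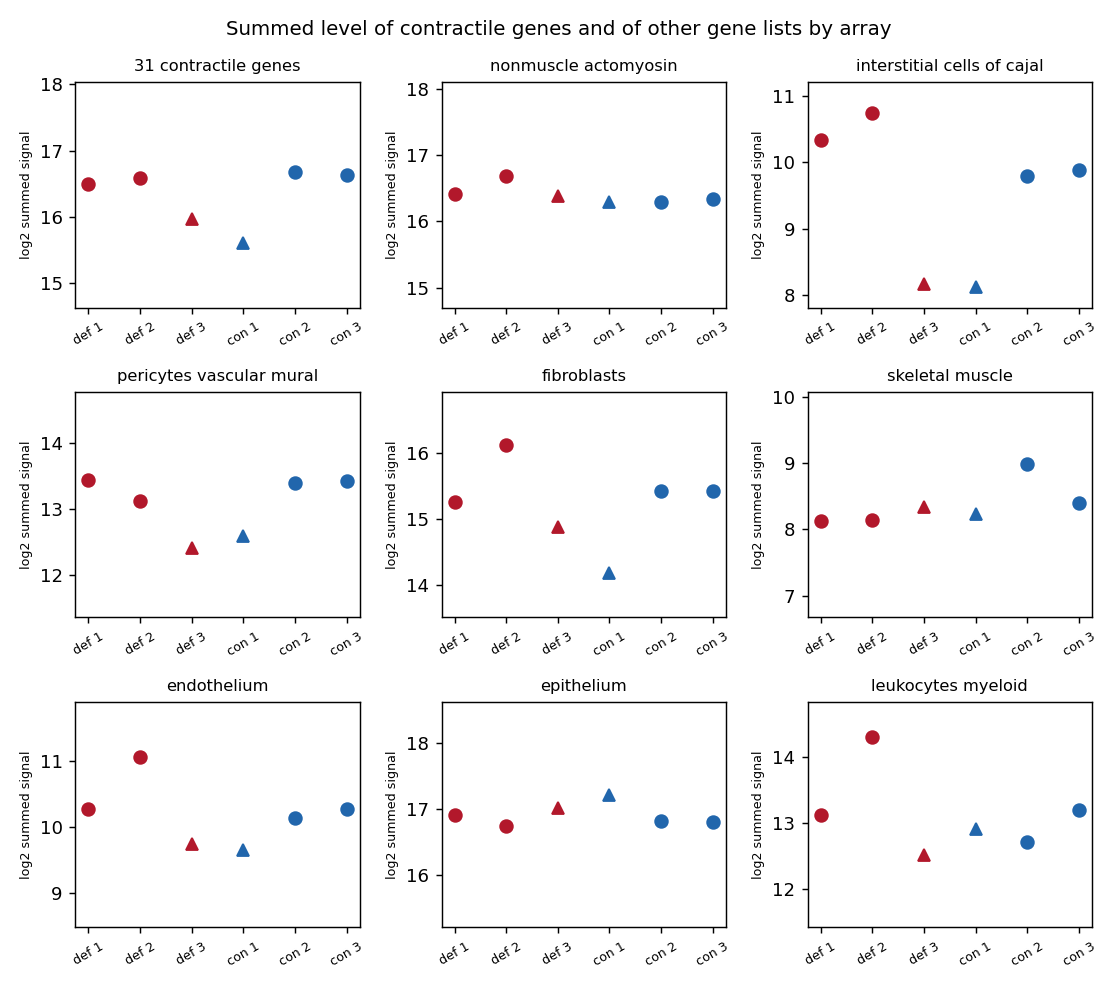
Each panel gives the log2 of the summed linear signal of a gene list on each of the 6 arrays, deficient (red) left of control (blue), with triangles for the arrays with small intestine genes and the same span of the vertical axis in every panel. The 31 contractile genes sum to 16.50, 16.58 and 15.97 in deficient and 15.61, 16.68 and 16.63 in control samples, and fibroblast, endothelial and myeloid sums are highest on deficient 2.

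Genes that regulate contraction but are not among the 31 were followed in lists by function, and none of the genes described here passed over all genes. Of 18 listed receptors of smooth muscle 12 had a probe set of their own and 4 passed the filter, with 2 higher and 2 lower. Agtr1a, an angiotensin receptor, read 5.04 on each deficient array, against 4.85, 6.96 and 6.78 in control samples. Its deficient values were identical to the last deposited digit, so no size is given for the difference. The endothelin receptor Ednrb differed by 0.25 and the prostaglandin receptor Ptger3 by 0.43. In the nitric oxide and cyclic GMP list, which relaxes muscle, 4 of 8 were higher and 4 lower, with the phosphodiesterases Pde4d and Pde5a each at -0.37 and the guanylyl cyclase subunit Gucy1a1 at -0.54.

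Other calcium and channel genes were higher for 7 of 11, with a median of 0.23, and 1 gene had an unadjusted p under 0.05. This was Atp2b1, the calcium pump of the plasma membrane, at 10.62, 10.47 and 10.74 in deficient samples and 11.09, 11.61 and 11.60 in control samples, a difference of -0.82 without overlap (limma adjusted p = 0.658). Itpr2, a calcium release channel, differed by -0.63. Kcnj8, a potassium channel pore also used as a pericyte marker, read 9.52, 11.12 and 8.13 against 8.01, 8.38 and 8.30, a difference of 1.36 that was highest on deficient 2. Regulators of the muscle programme were higher for 7 of 19, with a median of -0.08: serum response factor (Srf) differed by -0.26, Klf5 by -0.46 and Elk4 by 0.29.

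Focal adhesion and dense plaque genes were higher for 27 of 35, with a median of 0.15, but the median was -0.02 between the pair of arrays with small intestine genes and 0.28 without them. Among them Tpm4, a non-muscle tropomyosin, read 11.19, 12.17 and 10.57 in deficient samples against 10.29, 10.51 and 10.66 in control samples, Lmcd1 differed by 0.77 and the light chain Myl6 by 0.38. Dystrophin complex and caveolar genes were higher for 6 of 15, with Sgcb at 0.52, Utrn at -0.27 and Sntb1 at -0.29. Non-muscle actins and myosins were higher for 8 of 11, with a median of 0.22. Of these, Cnn3, the calponin of non-muscle cells, averaged 11.67 ± 0.65 in deficient samples and 10.84 ± 0.27 in control samples (SD). The difference was 0.82 (limma adjusted p = 0.684) without overlap, and 9.35% of all genes were higher without overlap. It rests on deficient 1 and 2, at 1.21 in the 4 arrays without small intestine genes and 0.04 between the pair with them. Smooth muscle calponin Cnn1 differed by 0.32 with overlap, by 0.20 in the 4 arrays and by 0.56 between the pair. Actg1, cytoplasmic actin, differed by 0.34, and Flnc held 1 identical value, 5.43, on 4 arrays. No difference between smooth muscle and non-muscle forms was tested.

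Markers of neighbouring cells of the muscle wall were described beside the members. Of 4 markers of interstitial cells of Cajal, Kit read 8.95, 7.93 and 7.06 in deficient samples and 7.03, 8.52 and 8.88 in control samples, and the chloride channel Ano1 7.81, 8.01 and 5.98 against 6.29, 8.19 and 8.23. Thbs4, in the same list but also made by fibroblasts and vessels, read 8.86, 10.12 and 4.90 against 4.61, 5.33 and 4.97, a difference of 2.99 (limma adjusted p = 0.684) that rests on deficient 1 and 2. Pericyte markers were higher for 3 of 6, with a median of 0.02: Rgs5 differed by -0.24, Pdgfrb by 0.52 and Mcam by 0.14. The remaining higher pericyte marker had an unadjusted p under 0.05 (limma adjusted p = 0.658). Endothelial markers were higher for 9 of 10, with a median of 0.36 (Lyve1 at 0.43, Vwf at 0.42 and Emcn at 0.19). The lower marker was the only one of them with an unadjusted p under 0.05 (limma adjusted p = 0.666). Neuronal markers were higher for 6 of 9, with a median of 0.33. Vip, Stmn2 and Snap25, named for their high mean, were nearer to no difference, at 0.08, -0.13 and -0.12. Epithelial markers stayed within a narrow band, with summed levels of 16.91, 16.75 and 17.02 against 17.21, 16.81 and 16.80. Of the remaining marker lists, cardiac muscle had 1 of 3 genes past the filter higher (Myl7), mesothelium 3 of 6, enteric glia 1 of 2, lymphocytes 0 of 2, adipocytes 0 of 5, small intestine enterocytes 1 of 7 and colon identity 6 of 7.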

How the data were processed

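Per the labels, whole-colon RNA of each of 6 mice was measured on its own Affymetrix array. Per the submitters' processing notes, the authors used GCRMA for the deposited log2 values; its version and settings, and any genome build, are not given in the sources used, and the log2 scale was read from the values (2.25 to 16.2). GCRMA models background from probe sequence and compresses differences near its floor. No depth applies, and 3 arrays a group limit the precision.

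The platform annotation pairs 34958 of 45101 probe sets with 1 gene, 932 with several and 9211 with none; 34754 had their Entrez identifier in the RefSeq table (GRCm38.p6), which changed no symbol. Each gene took its probe set of highest mean and was kept when above log2 4 on at least 3 arrays (10488 genes). Of 71 member probe sets 52 passed. The genotype test was limma's (lmFit and eBayes, version 3.58.1, R 4.3.3; two-sided, no covariate), deficient minus control, with Benjamini-Hochberg adjustment and a threshold of 0.05. Samples are labelled as biological replicates. Simulated data gave 0, 7 and 14 false calls for 200 genes changed by log2 1, 2 and 4, with 0%, 66.5% and 90.0% recovered. Members and the lists of other genes (8 pathway and 15 marker lists) were chosen with earlier results of these data known; 1 pathway list is not reported here. Named were all members, the 3 genes of smallest p in each pathway list, and genes from the 3 of highest mean in each marker list where a muscle result touches them; Myh1, Myh2, Myh4, Tnnt3, Myh6, Tnni3, Nppa and Nppb were named after their values were seen. Alternatives covered the filter, the normalization, the probe set rule, the variance model, a floor, a replicate block, each array left out and the arrays with small intestine genes.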

Additional observations from a re-analysis of the deposited data

How the results depend on the processing

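No member was called under any setting run, and the smallest adjusted p of a member was 0.0972, for Kcnmb1 with array weights. Over all genes 0 were called, against 2 with array weights, 1 with probe sets without a suffix and 1 with every probe set on its own; no member was among the calls. The median difference of the members changed sign with the array left out, from -0.35 to 0.19, and 8 to 23 members were higher. Tpm2, at 0.01, was -0.041 with quantile normalization, -0.012 with the mean of all probe sets, -0.085 with array weights and -0.28 without the arrays with small intestine genes. With the mean of all probe sets Synm was 0.12 and Synpo2 0.26. Leaving out 1 array, 17 members crossed 0: Acta2 ran from -0.40 to 0.20, Actg2 from -0.40 to 0.24, Myl9 from -0.59 to 0.13, Ppp1r14a from -0.81 to 0.29, Tpm1 from -0.34 to 0.033, Tpm2 from -0.37 to 0.20, Cnn1 from -0.26 to 0.78, Tagln from -0.26 to 0.64, Lmod1 from -0.47 to 0.11, Smtn from -0.53 to 0.085, Des from -0.24 to 0.66, Synm from -0.35 to 0.17, Flna from -0.14 to 0.66, Csrp1 from -0.25 to 0.42, Kcnma1 from -0.54 to 0.77, Hspb8 from -0.085 to 0.67 and Myocd from -0.59 to 0.16. The cause was not tested. The other 13 members kept their direction in each setting with 1 value per gene, where they had a value. Kcnmb1 and Cacna1c had none in 2 settings each. Outside these settings the second Myh11 probe set gave 0.12. Between deficient 3 and control 1 alone, Myh11, Ppp1r12b, Jph2 and Itga8 had the opposite sign. With the replicate number as a block 0 genes were called, 437 had an unadjusted p under 0.05 (783 without it) and the smallest adjusted p of a member was 0.893; the numbers do not pair the arrays, as same-numbered arrays correlated at -0.54, 0.36 and -0.61 in their deviations from group means.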
